A study of Mus with 2 samples.

Results

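The genes of the immunoproteasome and of class I peptide loading were followed across the bone marrow cells of mice labelled ground and mice labelled running. The set comprised the 10 genes Psmb8, Psmb9, Psmb10, Psme1, Psme2, Tap1, Tap2, Tapbp, Erap1 and Nlrc5, taken by symbol from the 32285 genes of the feature lists, and all 10 were present in both libraries. Both libraries were made from hindlimb marrow with a droplet-based 3′ kit that tags each captured transcript with a unique molecular identifier (UMI). There was 1 library per group. The strain, age and number of the mice and the running protocol are not given in the sources used here.

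Cells display fragments of their own proteins on MHC class I molecules, where CD8 T cells inspect them. The proteasome cuts these fragments in the cytosol, a transporter carries them into the endoplasmic reticulum, an aminopeptidase trims them there and a chaperone fits them onto the class I molecule. Interferon signals are known to switch on a version of the proteasome with exchanged catalytic subunits, the immunoproteasome, together with the transporter and its chaperone. Blood-forming and immune cells carry immunoproteasomes even without infection.

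The filters left 8666 cells of ground and 9080 of running, at median depths of 5938 and 5146 UMIs, and the matrices themselves held no barcode under 500 UMIs. The cells fell into 33 clusters and 16 classes named from marker genes, each called by its name with the ending "like". All cells together and 9 classes were compared between the libraries, and 14 classes with at least 50 cells in each library were used for levels. Levels are given as CPM, the UMIs of a gene scaled to the UMIs of all cells of a class, and intervals are 95% counting intervals. Each group had 1 library, so differences have no replicate check and no test was run, and effects of handling or of library preparation cannot be told apart from those of the group. The libraries shared 24 barcode sequences, 22 of them among the cells kept.

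The genes lie on 4 chromosomes of the mouse build GRCm38.p6, on which mm10 is based. The neighbours Psmb9 (ENSMUSG00000096727, chromosome 17, 34182030 to 34187330), Tap1 (ENSMUSG00000037321, 34187556 to 34197225), Psmb8 (ENSMUSG00000024338, 34198195 to 34201454) and Tap2 (ENSMUSG00000024339, 34204479 to 34216321) sit side by side in the MHC, and Tapbp (ENSMUSG00000024308, 33919478 to 33929290) lies close to them on chromosome 17. Outside the MHC, Psmb10 (ENSMUSG00000031897, 105935728 to 105938392) and Nlrc5 (ENSMUSG00000074151, 94434335 to 94527272) are on chromosome 8. Psme1 (ENSMUSG00000022216, 55578494 to 55581527) and Psme2 (ENSMUSG00000079197, 55587440 to 55591101) are neighbours on chromosome 14, and Erap1 (ENSMUSG00000021583, 74639573 to 74693205) is on chromosome 13. Some of these counts are uncertain. Psme2b, whose symbol marks it as a relative of Psme2, held 946 and 1258 UMIs, so that reads may have been split between them. Erap1 overlaps Cast (10144 and 9312 UMIs), Psme1 overlaps Emc9 (757 and 1052), Tapbp overlaps Gm19412 (66 in each library) and Nlrc5 overlaps 9330175E14Rik (70 and 197), and whether strand was used in counting is not given here.

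Over all cells, each of the 10 genes was higher in the running library, by log2 ratios from 0.18 for the trimming enzyme gene Erap1 to 1.11 for the transactivator gene Nlrc5. The median of the 10 was 0.36, beside 0.08 for the 13738 genes with at least 50 UMIs. The peptide transporter gene Tap1 and Nlrc5 were at least 1.5-fold higher, 2 of 10 genes, beside 6.53% of all genes tested. The constitutive catalytic subunits, which the immunoproteasome subunits replace, differed little between the libraries, with a median of -0.01. After both libraries were set to the class proportions of ground, each of the 10 genes was still higher in running, by 0.12 for Erap1 to 0.91 for Nlrc5.

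Psmb8, Psmb9 and Psmb10 encode the 3 catalytic subunits of the immunoproteasome. Over all cells Psmb8 had 16787 UMIs in ground (204.5 CPM) and 20705 in running (264.1 CPM), with a log2 ratio of 0.37 (0.34 to 0.40). Psmb9 had 7420 and 9890 UMIs, or 90.4 and 126.1 CPM (0.48, 0.44 to 0.53), and Psmb10 6049 and 7367 UMIs, or 73.7 and 94.0 CPM (0.35, 0.30 to 0.40). All 3 were higher in running, and the interval of Psmb9 lay above those of the other two. The share of cells with a Psmb8 UMI was 53.4% in ground and 60.3% in running, and 17.2% and 21.9% after each cell was thinned to 1000 UMIs, with 341 and 316 shallower cells left out.

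Psmb8 was highest in dendritic cell-like, T cell-like and NK cell-like cells and lowest in erythroid-like cells. Plasmacytoid dendritic cell-like cells held 564.4 CPM in ground and 625.6 CPM in running, conventional dendritic cell-like cells 490.2 and 625.8 CPM, and erythroid-like cells 17.4 and 51.6 CPM. The plasmacytoid level was 32.4 times the erythroid level in ground and 12.1 times in running. Of the 13 neighbouring pairs in the order of the 14 classes, 3 were set apart in that both libraries of one class lay above both of the next, among them immature neutrophil-like against erythroid-like cells, and the other 10 pairs overlapped. Psmb9 had the same highest and lowest classes, with 207.5 and 240.4 CPM in plasmacytoid dendritic cell-like and 15.95 and 55.8 CPM in erythroid-like cells.

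Psmb10 had another low point. It stood at 108.3 and 131.9 CPM in granulocyte-monocyte progenitor-like cells, at 14.4 and 20.8 CPM in immature neutrophil-like cells and at 9.92 and 15.3 CPM in mature neutrophil-like cells. Psmb8 went from 372.6 and 402.2 CPM in the progenitor-like cells to 76.0 and 98.7 CPM and then to 94.5 and 158.6 CPM, and Psmb9 from 124.3 and 152.8 CPM to 60.7 and 79.9 CPM and then to 74.1 and 117.3 CPM. Along the neutrophil series all 3 subunits were therefore lower in immature than in progenitor-like cells of both libraries, and from immature to mature cells Psmb8 and Psmb9 were higher while Psmb10 was lower. The 11 structural subunits of the 20S core outside the catalytic pairs were lower along the series as well. They summed to 3341 CPM in progenitor-like, 1058 CPM in immature and 681.6 CPM in mature neutrophil-like cells of ground. Levels are shares of all UMIs of a class, and S100a8 alone held 32090, 164500 and 134200 CPM in these classes of ground. Its part in the lower levels was not tested.

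**Figure D1:**
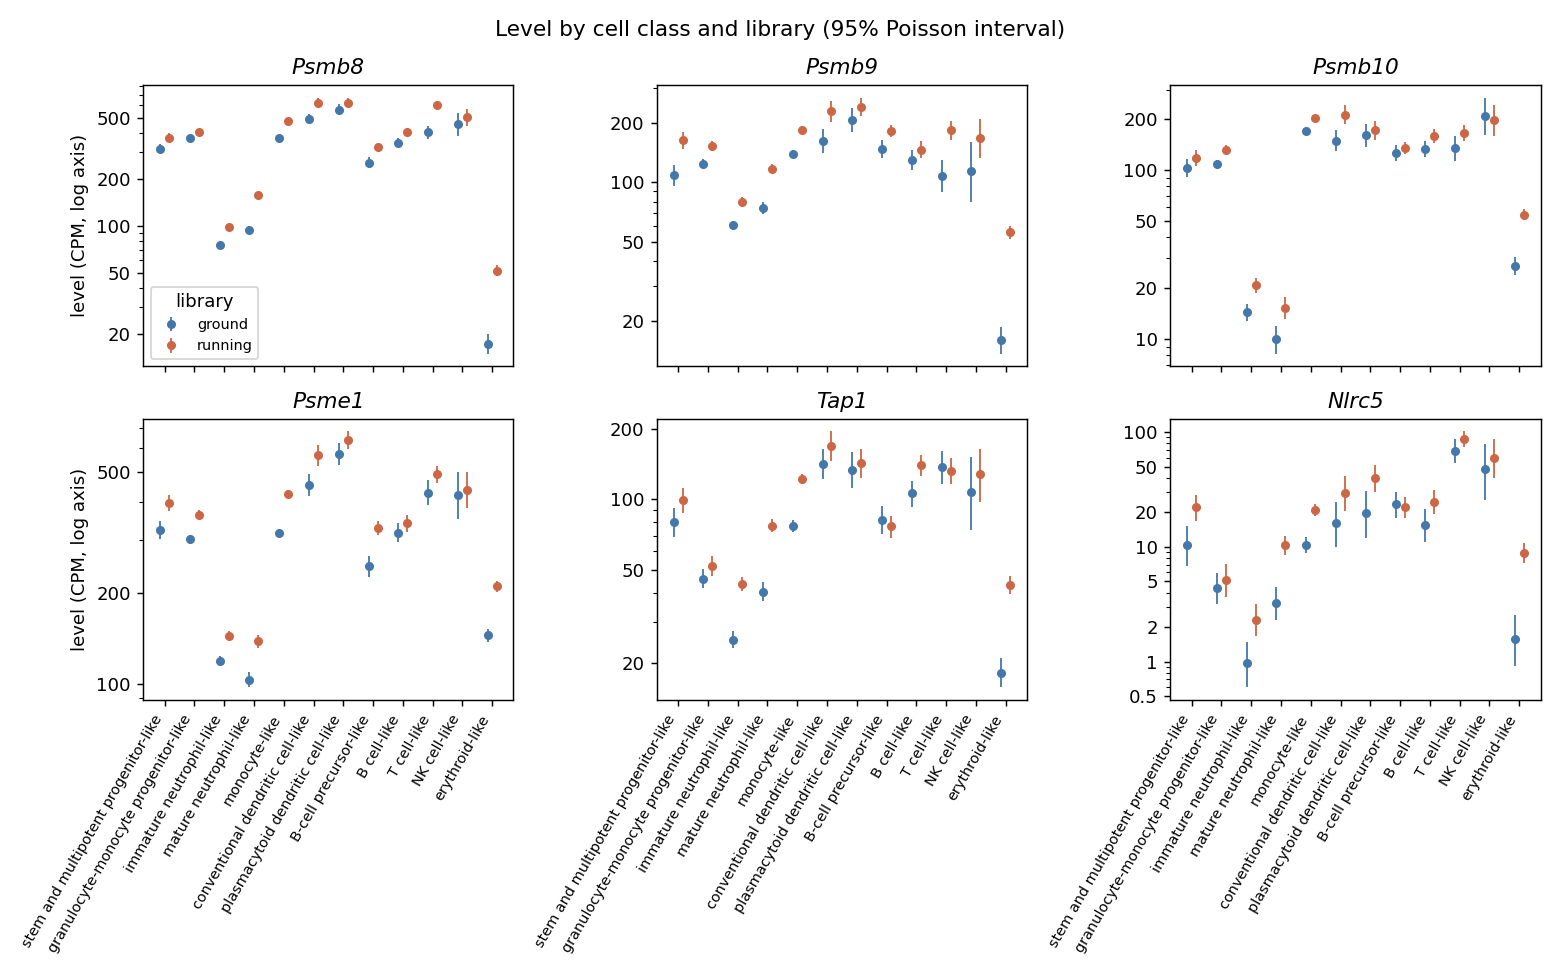
Level in CPM (log axis, scale set for each panel) of 6 of the genes in 12 classes, with ground in blue and running in red and 95% Poisson intervals as bars. Psmb8, Psmb9 and Tap1 are lowest in erythroid-like cells of ground, at 17.4, 15.95 and 18.3 CPM, and Psmb10 in mature neutrophil-like cells, at 9.92 CPM.

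Within classes, Psmb8 and Psmb9 had log2 ratios above 0 in each class compared, except Psmb8 in macrophage-like cells, where it had only 22 and 89 UMIs and a ratio of -0.18 (-0.87 to 0.56). Psmb8 stood at 1.56 (1.33 to 1.81) in erythroid-like, 0.75 (0.64 to 0.86) in mature neutrophil-like and 0.58 (0.42 to 0.74) in T cell-like cells. It was 0.11 (0.04 to 0.18) in granulocyte-monocyte progenitor-like cells, the smallest value among the well-counted classes. The other 4 classes lay between these, with 0.39 (0.33 to 0.44) in monocyte-like, 0.38 (0.28 to 0.47) in immature neutrophil-like, 0.34 (0.21 to 0.47) in B-cell precursor-like and 0.23 (0.10 to 0.37) in B cell-like cells.

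Psmb9 stood at a log2 ratio of 1.81 (1.56 to 2.06) in erythroid-like, 0.76 (0.45 to 1.08) in T cell-like and 0.66 (0.54 to 0.79) in mature neutrophil-like cells. It was 0.40 in both monocyte-like (0.32 to 0.48) and immature neutrophil-like cells (0.29 to 0.51), and 0.30 in both granulocyte-monocyte progenitor-like (0.18 to 0.42) and B-cell precursor-like cells (0.12 to 0.48). Its interval included 0 in B cell-like cells, at 0.18 (-0.04 to 0.40). Psmb10 stood at 1.01 (0.81 to 1.21) in erythroid-like, 0.62 (0.27 to 0.98) in mature and 0.53 (0.31 to 0.76) in immature neutrophil-like cells, 0.25 (0.18 to 0.33) in monocyte-like cells and 0.09 (-0.10 to 0.29) in B-cell precursor-like cells. It was 0.30 (0.01 to 0.60) in T cell-like, 0.28 (0.16 to 0.41) in granulocyte-monocyte progenitor-like and 0.25 (0.04 to 0.47) in B cell-like cells.

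Each immunoproteasome subunit takes the place of 1 constitutive subunit as the particle is built: Psmb8 that of Psmb5, Psmb9 that of Psmb6 and Psmb10 that of Psmb7. Over all cells Psmb5 stood at 164.2 and 158.3 CPM (log2 ratio -0.05, -0.09 to -0.02), Psmb6 at 141.6 and 147.1 CPM (0.06, 0.02 to 0.09) and Psmb7 at 89.1 and 88.7 CPM (-0.01, -0.05 to 0.04). The share of the immunoproteasome member among the UMIs of each pair does not depend on the library total. It is a share of captured transcript ends, not of protein, and it is read only across libraries and classes.

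The share was higher in running for all 3 pairs over all cells. Psmb8 made up 55.5% (54.9 to 56.0) of its pair in ground and 62.5% (62.0 to 63.1) in running. Psmb9 made up 39.0% and 46.2%, and Psmb10 45.3% and 51.4%. In erythroid-like cells, where the shares were lowest, that of Psmb8 was 7.71% and 17.6%, that of Psmb9 7.19% and 19.6% and that of Psmb10 14.8% and 26.1%. The ranking of classes by share differed between the pairs. Mature neutrophil-like cells had the highest share of Psmb9 in both libraries (73.5% and 80.6%) but a low share of Psmb10 (25.3% and 32.6%), and their Psmb8 share was 64.1% and 74.9%. Psmb6, the partner of Psmb9, was itself low in these cells, at 26.8 and 28.3 CPM against 239.8 and 220.8 CPM in granulocyte-monocyte progenitor-like cells.

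T cell-like and B cell-like cells had high Psmb8 and Psmb10 shares in both libraries, with smaller differences between the libraries than over all cells. In T cell-like cells the Psmb8 share was 79.8% and 83.0% and the Psmb10 share 74.9% and 73.6%, while the Psmb9 share, at 48.7% and 58.8%, differed more. In B cell-like cells the Psmb8 share was 74.9% and 77.3%. B-cell precursor-like cells had lower shares than B cell-like cells for all 3 pairs, with 59.2% and 62.1% for Psmb8 and 50.3% and 49.2% for Psmb10. In monocyte-like cells the Psmb8 share was 61.7% in ground and 70.9% in running, and there Psmb5 was lower in running, at a log2 ratio of -0.21.

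**Figure D2:**
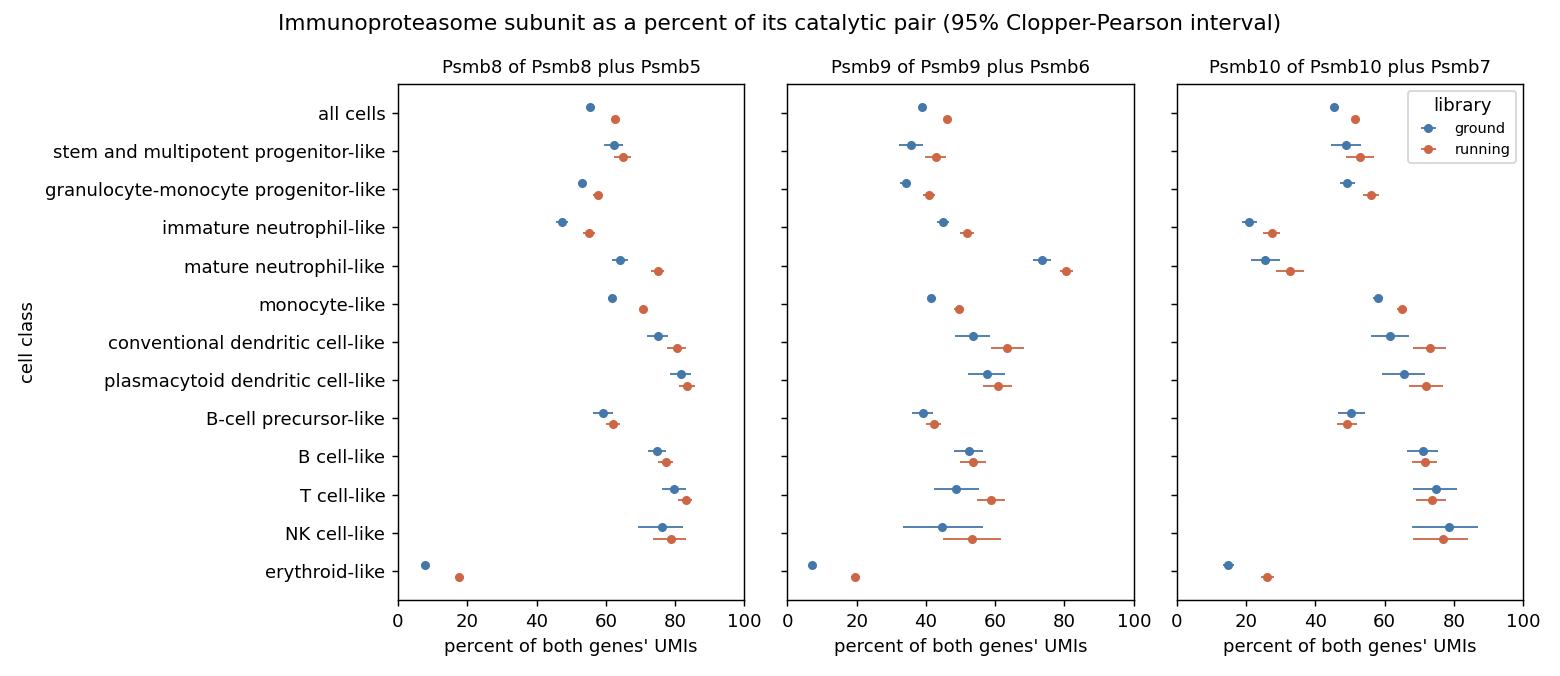
Share of the immunoproteasome subunit among the UMIs of its catalytic pair (horizontal axis, percent) by class (vertical axis), with ground in blue and running in red and 95% Clopper-Pearson intervals as bars. Erythroid-like cells lie far to the left, with a Psmb8 share of 7.71% in ground and 17.6% in running, and mature neutrophil-like cells stand out in the Psmb9 pair at 73.5% and 80.6%.

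Psme1 and Psme2 encode PA28α and PA28β, which form a ring that caps the proteasome and speeds the cutting of short peptides. Psme1 had 17465 and 21714 UMIs over all cells, which is 212.7 and 276.9 CPM and a log2 ratio of 0.38 (0.35 to 0.41). Psme2 had 9734 and 11454 UMIs, which is 118.6 and 146.1 CPM and a ratio of 0.30 (0.26 to 0.34). The genes differed less between classes than Psmb8 did: Psme1 ran from 103.7 and 138.8 CPM in mature neutrophil-like cells to 576.9 and 639.0 CPM in plasmacytoid dendritic cell-like cells, 5.56 times in ground and 4.60 times in running.

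Psme1 was higher in running by 0.54 (0.44 to 0.63) in erythroid-like, 0.43 (0.37 to 0.48) in monocyte-like and 0.42 in both mature neutrophil-like (0.31 to 0.53) and B-cell precursor-like cells (0.28 to 0.56). In macrophage-like cells it stood at 0.91 (0.20 to 1.70), from 18 and 155 UMIs, in a class that was not alike in both libraries, as given below. Smaller ratios were found in immature neutrophil-like cells, at 0.27 (0.19 to 0.35), granulocyte-monocyte progenitor-like cells, at 0.26 (0.19 to 0.34), and T cell-like cells, at 0.20 (0.04 to 0.36). In B cell-like cells the interval included 0, at 0.10 (-0.04 to 0.25), but not without the mixed cluster 32 described with that class, at 0.15 (0.005 to 0.29). Psme2 stood at 0.56 (0.42 to 0.69) in erythroid-like, 0.42 (0.18 to 0.68) in T cell-like, 0.40 (0.25 to 0.55) in mature neutrophil-like and 0.38 (0.31 to 0.45) in monocyte-like cells. It was 0.30 (0.08 to 0.52) in B-cell precursor-like and 0.14 in both granulocyte-monocyte progenitor-like (0.04 to 0.24) and B cell-like cells (-0.06 to 0.34). For immature neutrophil-like cells it was 0.08 (-0.03 to 0.19), an interval that included 0, beside a median of 0.09 for all genes there.

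Tap1 and Tap2 encode the paired chains of the transporter that moves peptides into the endoplasmic reticulum, and Tapbp encodes tapasin, which bridges the transporter and the empty class I molecule. The 2 transporter genes differed. Tap1 had 4088 and 6010 UMIs over all cells (49.8 and 76.7 CPM, log2 ratio 0.62, 0.57 to 0.68), while Tap2 had 2645 and 2885 UMIs (32.2 and 36.8 CPM, log2 ratio 0.19, 0.12 to 0.27). Their counting intervals did not overlap. Tapbp had 8303 and 9294 UMIs (101.1 and 118.5 CPM, log2 ratio 0.23, 0.19 to 0.27).

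Tap1 had its largest ratios in erythroid-like and mature neutrophil-like cells. It was 1.24 (1.005 to 1.49) in erythroid-like cells, from 196 and 522 UMIs, and 0.94 (0.77 to 1.10) in mature neutrophil-like cells, from 460 and 862 UMIs. In immature neutrophil-like cells it was 0.79 (0.63 to 0.95) and in monocyte-like cells 0.67 (0.56 to 0.77). B cell-like cells stood at 0.40 (0.17 to 0.64), while T cell-like cells, at -0.05 (-0.35 to 0.26), B-cell precursor-like cells, at -0.10 (-0.35 to 0.16), and granulocyte-monocyte progenitor-like cells, at 0.18 (-0.02 to 0.38), had intervals that included 0. In T cell-like cells Tap1 thus stood apart from Psmb8 and Psmb9, with 137.3 and 132.8 CPM.

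Tap2 stayed between log2 ratios of -0.07 in B-cell precursor-like and 0.48 in T cell-like cells, and in erythroid-like cells it was 0.14 (-0.19 to 0.47), where Tap1 was 1.24. By level, Tap2 was highest in T cell-like cells of running, at 61.1 and 85.1 CPM, and in NK cell-like cells of ground, at 84.4 and 55.4 CPM from few UMIs. It hardly followed the neutrophil series, at 34.3 and 36.1 CPM in progenitor-like, 31.6 and 38.1 CPM in immature and 41.2 and 47.3 CPM in mature neutrophil-like cells. Tapbp was 0.45 (0.37 to 0.53) in monocyte-like cells, its largest ratio, and between -0.23 in B-cell precursor-like and 0.22 in erythroid-like cells elsewhere. Its level in mature neutrophil-like cells, 112.5 and 122.5 CPM, lay above that in immature cells, 71.4 and 80.1 CPM, in both libraries.

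Erap1 encodes the aminopeptidase that trims peptides in the endoplasmic reticulum. It had 1469 and 1595 UMIs over all cells (17.9 and 20.3 CPM, log2 ratio 0.18, 0.08 to 0.29). The classes split. The ratio was 1.23 (0.60 to 1.89) in mature neutrophil-like cells, from only 31 and 71 UMIs. It was 0.37 (0.03 to 0.71) in immature neutrophil-like, 0.33 (0.03 to 0.63) in erythroid-like and 0.32 (0.07 to 0.58) in granulocyte-monocyte progenitor-like cells. It was below 0 with intervals that included 0 in monocyte-like (-0.14), T cell-like (-0.35) and B cell-like cells (-0.37). NK cell-like and T cell-like cells had the highest levels, at 74.2 and 53.3 CPM and at 62.1 and 48.8 CPM.

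Nlrc5 encodes the regulator that turns on the class I genes and several of their partners, in the way that CIITA acts on class II genes. It had the largest ratio of the 10 genes over all cells, with 540 and 1110 UMIs (6.58 and 14.2 CPM, log2 ratio 1.11, 0.96 to 1.26). It was 2.48 (1.74 to 3.32) in erythroid-like cells, from 17 and 107 UMIs, 1.67 (1.12 to 2.24) in mature neutrophil-like cells, from 37 and 115 UMIs, and 1.27 (0.47 to 2.11) in immature neutrophil-like cells, from 21 and 40 UMIs. In monocyte-like cells it was 1.01 (0.73 to 1.29), from 164 and 287 UMIs. B-cell precursor-like cells were at -0.08 (-0.56 to 0.40) and granulocyte-monocyte progenitor-like cells at 0.25 (-0.41 to 0.90), with intervals that included 0. T cell-like cells had the highest level in both libraries, 68.7 and 86.7 CPM, and a ratio of 0.34 (-0.07 to 0.76). The class with the highest Nlrc5 was therefore not among those with a large ratio. Basophil or mast cell-like cells held 0 and 2 UMIs.

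Among the classes, erythroid-like cells had the highest median of the 10 genes from summed counts, 0.78 beside 0.04 for all genes there, with 5 of 10 genes at least 1.5-fold higher beside 5.57% of all genes. These 5 were Psmb8, Psmb9, Psmb10, Tap1 and Nlrc5. With each cell weighted alike the order turned, and the median was 0.41 in erythroid-like and 0.56 in mature neutrophil-like cells. The class was not alike in both libraries. Its median depth was 8245 UMIs in ground and 15921 in running, the summed level of its 25 markers was 91330 and 58460 CPM, with intervals below 0 for 23 of them, and granulocyte-monocyte progenitor markers summed to 946.7 and 1195 CPM. Markers of mature neutrophils summed to 1002 and 656.8 CPM and those of monocytes to 209.5 and 193.5 CPM. The part of these differences in the result was not tested.

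The erythroid-like values were not spread evenly over cells. The 10 cells with the most Psmb8 held 38.5% of its UMIs in ground and 33.6% in running. When each cell was given the same weight, the class ratio was 0.46 for Psmb8, 1.26 for Psmb9 and 0.71 for Psmb10, and the share of thinned cells with a Psmb8 UMI was 2.22% (1.11 to 3.94) in ground and 3.29% (1.76 to 5.56) in running. In the deep cluster 10, led by the carbonic anhydrase genes Car1 and Car2, with 283 and 251 cells, both ways of averaging were close: the Psmb8 ratio was 1.76 (1.49 to 2.04) from summed counts and 1.57 from cell means, and that of Psmb9 1.99 and 2.04. The share of cluster 10 cells with a Psmb9 UMI was 30.04% (24.8 to 35.7) in ground and 69.3% (63.2 to 75.0) in running, where the median cell held 32328 and 39933 UMIs. In the shallow cluster 23 the Psmb8 ratio was 1.05 from summed counts and 0.11 from cell means.

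Mature neutrophil-like cells had a median of 0.64 beside 0.10 for all genes, and 6 of 10 genes were at least 1.5-fold higher beside 8.82% of all genes. They were Psmb8, Psmb9, Psmb10, Tap1, Erap1 and Nlrc5. The class was made up of different clusters in the libraries: clusters 14 and 15 held 1069 and 600 ground cells but 60 and 66 running cells, and clusters 2 and 6 held 1127 and 1052 running cells but 185 and 55 ground cells. At the cluster proportions of ground, the Psmb9 ratio was 0.35, that of Tap1 0.56 and that of Psmb10 1.27. These ratios lean on few running UMIs in clusters 14 and 15. Psmb9 had 16 and 27 there, Tap1 10 and 16 and Psmb10 8 and 3.

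Cluster 5, led by Il1b and Ptgs2, held 680 ground and 722 running cells. Within it Psmb8 was at 185.2 and 349.8 CPM, a log2 ratio of 0.92 (0.72 to 1.12), above the level in every other mature cluster of the same library. Tap1 stood there at 56.0 and 124.5 CPM (1.15, 0.80 to 1.52), Psmb9 at 118.5 and 193.7 CPM (0.71, 0.45 to 0.97) and Nlrc5 at 7.15 and 23.8 CPM (1.74, 0.79 to 2.79). The median of 9 counted genes was 0.71 beside 0.02 for all genes of the cluster. Erythroid markers in cluster 5 summed to 664.6 and 3350 CPM, and their part in the result was not tested. In cluster 2 the Psmb8 ratio was 0.15 (-0.18 to 0.48), so the class ratio did not hold evenly over its clusters.

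**Figure D3:**
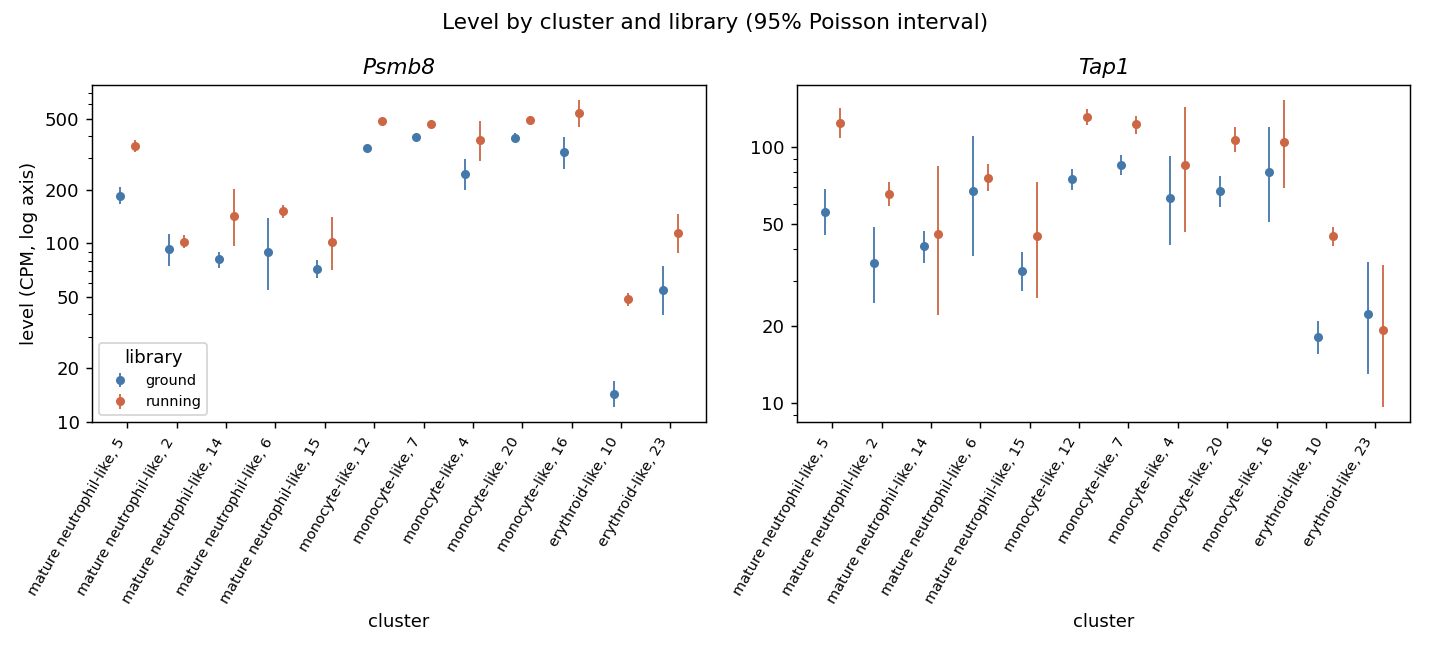
Level in CPM (log axis) of Psmb8 (left) and Tap1 (right) in clusters of the mature neutrophil-like, monocyte-like and erythroid-like classes, with ground in blue and running in red and 95% Poisson intervals as bars. In cluster 5 Psmb8 goes from 185.2 to 349.8 CPM, while in cluster 2 it is at 92.4 and 102.2 CPM with intervals that overlap.

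In monocyte-like cells the median was 0.39 beside -0.01 for all genes, and Tap1 and Nlrc5 were at least 1.5-fold higher, 2 of 10 genes beside 3.29% of all genes. The size of the ratio differed between clusters. Psmb8 was at 0.50 (0.42 to 0.59) in cluster 12, led by Vcan and Fn1, at 0.33 (0.22 to 0.45) and 0.26 (0.17 to 0.34) in clusters 20 and 7, which carry F13a1 and, in cluster 7, histone transcripts of dividing cells, and at 0.73 (0.34 to 1.12) in cluster 16, led by Ace and in part by Nr4a1 and the heat shock genes Hspa1a and Hspa1b, which respond to stress. Immature neutrophil-like cells had a median of 0.37 beside 0.09, with 2 of 10 genes, Tap1 and Nlrc5, at least 1.5-fold higher beside 4.62% of all genes. Granulocyte-monocyte progenitor-like cells had a median of 0.21 beside 0.00 and 0 of 10 genes past 1.5-fold, beside 3.24% of all genes. There the share of thinned cells with a Psmb8 UMI was 35.3% in ground and 24.9% in running, against the direction of the summed level, and with each cell weighted alike the Psmb8 ratio was 0.03, so the Psmb8 difference in this class is not clear. Weighted so, Tapbp and Nlrc5 stood at -0.34 and -0.80 there.

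The medians of the T cell-like, B cell-like and B-cell precursor-like classes lay below the 0.37 of immature neutrophil-like cells. Psmb8 and Psmb9 nevertheless had larger ratios in T cell-like than in immature neutrophil-like cells. T cell-like cells had a median of 0.32 beside 0.01 for all genes, and 1 of 10 genes, Psmb9, was at least 1.5-fold higher beside 5.97% of all genes. Psmb8 lay just under that mark, at 404.4 and 604.9 CPM. Monocyte markers summed to 1962 and 2884 CPM in these cells and NK cell markers to 1271 and 1861 CPM, and their part in the result was not tested. In B cell-like cells the median was 0.21 beside -0.05, and 1 of 10 genes, Nlrc5, was past 1.5-fold beside 4.33% of all genes. Cluster 32 of this class, with 6 ground and 37 running cells, carried neutrophil transcripts, and without it Psmb8 was at 0.30, Nlrc5 at 0.76 and Psme2 at 0.28 (0.07 to 0.48), against 0.14 (-0.06 to 0.34) with it.

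B-cell precursor-like cells had the lowest median, 0.04 beside -0.07, with 0 of 10 genes past 1.5-fold beside 2.78% of all genes. The 10 genes split there: Psme1, Psmb8, Psme2 and Psmb9 stood between 0.30 and 0.42 with intervals above 0, and Tap1, Tap2, Tapbp, Erap1 and Nlrc5 were below 0 with intervals that included 0. Macrophage-like cells, with 62 and 216 cells and medians of 803 and 942.5 UMIs, left 5 genes to count. Of these, Psmb9 and Psme1 were at least 1.5-fold higher, 2 of 5 genes beside 14.0% of all genes. The counts are too small to read a difference from most of them. The class also differed in transcripts of other cells. S100a8 held 30780 CPM in ground and 61770 CPM in running, and the haemoglobin gene Hbb-bs 6406 and 262.1 CPM. Their part in the result was not tested.

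The rest of the proteasome was nearly level between the libraries over all cells. Of the 11 other subunits of the 20S core, 0 were at least 1.5-fold higher over all cells, beside 6.53% of all genes. A list this short can hold 0 at that share. The median of these subunits was 0.03 and the highest value 0.14, for Psma4, a subunit of the outer ring. The next were Psma5 at 0.13, Psma3 at 0.12 and Psmb4 at 0.05. Of the 18 subunits of the 19S cap, which recognises tagged proteins, 0 were past 1.5-fold, again beside 6.53% of all genes. Their median was 0.01, with Psmd7 and Psmd4 highest at 0.13 and 0.12. Assembly factors and other activators had a median of 0.06 over 8 counted genes, led by the assembly chaperone genes Psmg2 at 0.22 and Psmg4 at 0.20. In monocyte-like cells the medians were -0.10 for the other core subunits and -0.15 for the 19S cap, below that of all genes, while the 3 immunoproteasome subunits had a median of 0.39. In erythroid-like cells they were 0.20 and 0.08 against 1.56 for the immunoproteasome subunits. In B-cell precursor-like cells the other core subunits had a median of 0.15, against 0.30 for the immunoproteasome subunits and 0.04 for the 10 genes. In T cell-like cells the other core subunits had one of 0.19, against 0.58 for the immunoproteasome subunits.

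Other genes that serve class I peptides were mixed. B2m, the light chain of every class I molecule, had 57299 and 82425 UMIs over all cells (log2 ratio 0.59, 0.58 to 0.61), and Tapbpl, a relative of tapasin, stood at 0.54 (0.42 to 0.66). The general folding genes of the endoplasmic reticulum did not follow, with Calr, which encodes calreticulin, at -0.18 (-0.20 to -0.16), and the list of 6 had a median of -0.01. Peptidases of the path had a median of 0.03 over 7 genes, with Thop1 at 0.26, Lap3 at 0.25, Npepps at -0.19 and Lnpep at -0.19. At the class proportions of ground Thop1 was at 0.1, Lap3 at 0.085, Npepps at -0.10 and Lnpep at -0.24. The heavy chains of class I had a median of 0.69, and 5 of 10 were past 1.5-fold beside 6.53% of all genes. Among them H2-K1, a classical heavy chain, had 30198 and 53672 UMIs (0.90, 0.88 to 0.92). H2-Q7 at 1.62, H2-Q6 at 1.44 and H2-Q4 at 0.91 are close relatives of one another, so reads may have been split between them.

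Interferon-responsive genes outside the pathway were higher by more than the 10 genes. GTPases induced by interferon-γ, which attack membranes around intracellular microbes, had a median of 0.82 over all cells and 9 of 12 genes past 1.5-fold, with Gbp6 at 2.27 (56 and 257 UMIs), Iigp1 at 2.20, Gbp9 at 1.25 and Gbp2 at 1.03. Genes of the type I interferon response had a median of 0.93, with 14 of 17 past 1.5-fold, among them Ifi44 at 1.80, Ifit3 at 1.70, Isg15 at 1.23 and Ifi27l2a at 1.08. Both shares stand beside the same 6.53% of all genes. The lists differed between classes: in erythroid-like cells the GTPase list had a median of 1.56 over 6 counted genes and the type I list one of 0.89, whereas granulocyte-monocyte progenitor-like cells had medians of 0.30 and 1.44 and the 10 genes one of 0.21.

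Regulators known to act on these genes differed less as a group, with a median of 0.12 over 19 genes. Socs1, an inhibitor of cytokine receptor signals, stood at 0.54 (417 and 580 UMIs), and at 0.27 at the class proportions of ground. Stat2 and Irf9 encode parts of the transcription factor complex of the type I interferon response. They were at 0.34 and 0.32, and at 0.25 and 0.29 at the class proportions of ground. Irf1, a factor known to act at the promoters of Psmb9 and Tap1, was at 0.12 (0.04 to 0.20) over all cells. It was at 0.025 at the class proportions of ground and at 1.24 in erythroid-like cells. In erythroid-like cells the 18 counted regulators had a median of 0.05, and 5 were at least 1.5-fold higher beside 5.57% of all genes. Another 1 was at least 1.5-fold lower, beside 3.22% of all genes. The part of Irf1 in the ratios of Psmb9 and Tap1 was not tested.

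**Figure D4:**
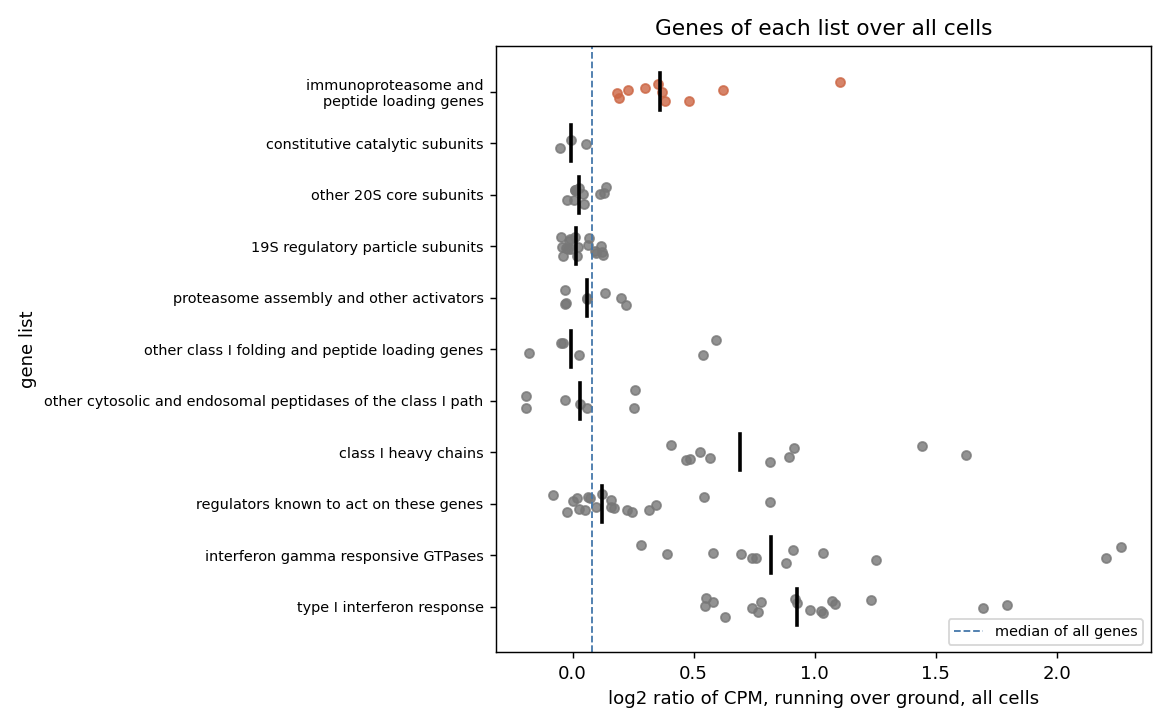
Log2 ratio of CPM, running over ground, over all cells (horizontal axis) for each gene with at least 50 UMIs in each list (vertical axis), with the list median as a black line and the median of all genes as a dashed line. The 10 genes (red) have a median of 0.36, the proteasome lists lie near 0 and the interferon lists have medians of 0.82 and 0.93.

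The genes whose level across classes was most like the mean of the 10 were ranked over 28 profiles of 14 classes in 2 libraries, as a description. Of 11603 genes, the closest by Pearson correlation of log2(CPM + 10) were Mndal (0.92) and Ifi203 (0.91), of the interferon-inducible Ifi200 family, Tmem173 (0.91), which encodes the DNA-sensing adaptor STING, H2-K1 (0.90) and Ifi47 (0.90), an interferon-induced GTPase. The profiles share their 2 libraries and the same cells behind each class. Among the 10 genes themselves, Psme1 and Psmb8 lay closest to the mean profile (0.94 each) and Tapbp and Tap2 farthest from it (0.66 and 0.58).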

How the data were processed

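Bone marrow cells of 2 libraries, ground and running, were profiled with a Chromium 3′ v3 kit, per the labels' protocols. The deposited values are raw UMI counts for each gene and barcode. Cell Ranger 5.0.0 wrote them, per the file headers. The submitters' processing notes also name STAR and mm10. The ground library held 9162 barcodes with 85014860 UMIs and the running library 9473 barcodes with 79990530 UMIs.

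From these counts, barcodes with at least 500 UMIs, at least 250 genes and at most 10% mitochondrial UMIs were kept, which removed 253 and 293. Scrublet in scanpy 1.11.5, run per library, called 243 (2.73%) and 100 (1.09%) doublets, which were removed. Both libraries were clustered jointly, without batch integration (10000 counts per cell, log, variable genes with library as batch key, 30 principal components, 15 neighbours, Leiden in igraph 0.11.9, resolution 1). The 10 genes and the lists of class I heavy chains, class I folding genes, interferon-γ GTPases and type I interferon genes were kept out of the variable genes. This removed 19 of 2000 variable genes and left 1981, and 0 of the 10 genes were among them.

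A cluster took the class with most markers among its 10 leading genes (highest fold over the other clusters among genes in at least 25% of its cells), with ties decided by the 50 leading genes, and needed 3 detected markers. This tie rule was set with the clusters in view. Clusters 4, 23 and 24 had low UMI counts but were led by markers of their class and were named. Classes with at least 200 cells in each library were compared, and macrophage-like cells with at least 50.

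CPM came from summed counts, with exact Poisson, Clopper-Pearson and conditional binomial intervals at 95%, which cover counting error only. Ratios were used where a gene had at least 50 UMIs in a class. No test was run, since each group had 1 library. The interval procedure was tested on simulated data with independent counts, a check that cannot cover spread between cells or libraries. The text names all 10 genes over all cells, in classes by value, range or count, the constitutive partners, up to 4 genes of each other list with the largest ratios in size, and the 5 genes of most similar profile. Irf1, S100a8, Hbb-bs, the overlapping genes and the genes that lead clusters were named beyond this rule, after their values were seen. The 10 genes, the lists and the markers were chosen with earlier results of these data known. Coordinates are from RefSeq annotation of GRCm38.p6. Promoter and protein sequences were not used here, and 1 gene of the regulator list is not reported here. Python 3.11.15, numpy 2.4.6, scipy 1.17.1 and pandas 2.3.3 were used.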

Additional observations from a re-analysis of the deposited data

How the results depend on the processing

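The median log2 ratio of the 10 genes stayed above 0 in all classes compared and over all cells under each alternative that gave a value. Under the alternatives, 118 of 124 medians and 115 of 134 counts stayed near the value given. For a count this means within 1.5 times. For a median it means within the averaged counting intervals of the 1 or 2 genes at its middle. That range can be wide, as in granulocyte-monocyte progenitor-like cells (-0.22 to 0.64 around 0.21), so staying within it is a weak check there. For single genes, 1128 of 1183 values stayed within the counting interval, 55 moved, and 0 of those whose interval excluded 0 changed sign. A minimum of 200 UMIs and no UMI minimum change only which genes are counted. Values of single genes under them could not move, and they are among the 1128. Over all cells the median (0.36) was 0.31 when scaled without the 50 most abundant genes and 0.28 relative to the median gene, and in both cases, as with the class proportions of ground or a fold of 2, 1 gene in place of 2 was past the threshold. The monocyte-like median (0.39) was 0.51 with doublets kept and 0.51 as a mean of CPM over cells. The erythroid-like median (0.78) was 0.41 as a mean of CPM over cells and 0.56 over genes with at least 200 UMIs.

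The counts past 1.5-fold changed as follows. The share of all genes was computed only at 1.5-fold in the processing given above, so counts under the alternatives have no background beside them. The 6 genes of mature neutrophil-like cells were 4 relative to the median gene, at the cluster proportions of ground or with at least 200 UMIs. A fold of 2 left 1 gene in immature neutrophil-like, 2 in mature neutrophil-like, 1 in monocyte-like and 0 in macrophage-like, B cell-like and T cell-like cells. A minimum of 200 UMIs left 1 in immature neutrophil-like and 0 in B cell-like cells, because fewer genes were counted. Doublets kept gave 1 in granulocyte-monocyte progenitor-like and 2 in T cell-like cells, and 1 doublet threshold or at most 5% mitochondrial UMIs also gave 2 in T cell-like cells. A mean of CPM over cells gave 1 in macrophage-like and 0 in T cell-like cells, and no UMI minimum gave 4 in macrophage-like cells. Apart from the alternatives that change the scaling, the fold or the genes counted, the cause was not tested.

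Leaving out cluster 32, and mature neutrophil-like cluster 5 or erythroid-like cluster 10 alone, were alternatives chosen after seeing the data. Macrophage-like cells gave no value where fewer than 50 cells per library were left. No paired analysis was possible because each group held 1 library and no test was run.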
